A study of Sorghum bicolor with 14 samples.

Results

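Sobic.004G004800, the vacuolar invertase of sorghum known as SbVIN1, was followed through stem development and soil drying. It was taken by its annotation ID, which 1 of 34755 loci carried in the development table and 1 of 32726 in the drought table. Both rows carried this ID alone and printed the same range, chromosome 4 from 418238 to 423162 (4925 bp), and 0 other loci of either table overlapped it. The files do not name genes or give strand, exons or genome build, so the enzyme name rests on the ID.

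RNA was sequenced from the middle internode of the stem of the grain sorghum (Sorghum bicolor) variety M35-1, with 14 libraries in 7 groups of 2. Field-grown, fertilised and watered plants were sampled at floral initiation, booting (the panicle still enclosed by the uppermost leaf sheath) and at 2 points of grain filling, the milky stage and the soft dough stage. Pot-grown plants, 1 per pot, had water withheld from the flag leaf stage and were taken at booting at soil moisture readings near 13% (named D1), 7% (named D2) and 2% (named D3). No watered pot group was analysed here, and all groups share the variety and the tissue. Levels are given as FPKM, the fragments mapped to a transcript scaled by its length in kilobases and by each 1000000 mapped fragments, with 1 deposited column per group.

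Vacuolar invertase splits sucrose into glucose and fructose inside the acidic vacuole. The hexoses add to the osmotic pull that drives cell growth, and in grasses that store sugar in the stem, such as sugarcane and sweet sorghum, low activity of the enzyme goes with sucrose storage in ripening internodes. The enzyme is also regulated after transcription, by inhibitor proteins among others, so a transcript level is not an activity.

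Over development the transcript had no steady course. Sobic.004G004800 stood at 2.34 FPKM when flowers were initiated and at 4.60 FPKM at booting. It then stood at 1.81 FPKM at milky stage, and soft dough had 7.08 FPKM. The level was therefore highest at the last stage sampled and lowest at the grain filling stage just before it, with booting above floral initiation. In the drying pots Sobic.004G004800 had 0.787 FPKM at D1, then 1.18 FPKM at D2 and finally 0.452 FPKM at D3. The middle reading had the highest level and the driest soil the lowest, and each pot value lay under each field value. Each column is the authors' pooled value, so no difference has a replicate check, an error or a p-value. The internode was sampled whole, so fewer cells with the transcript and less transcript per cell cannot be told apart.

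**Figure D1:**
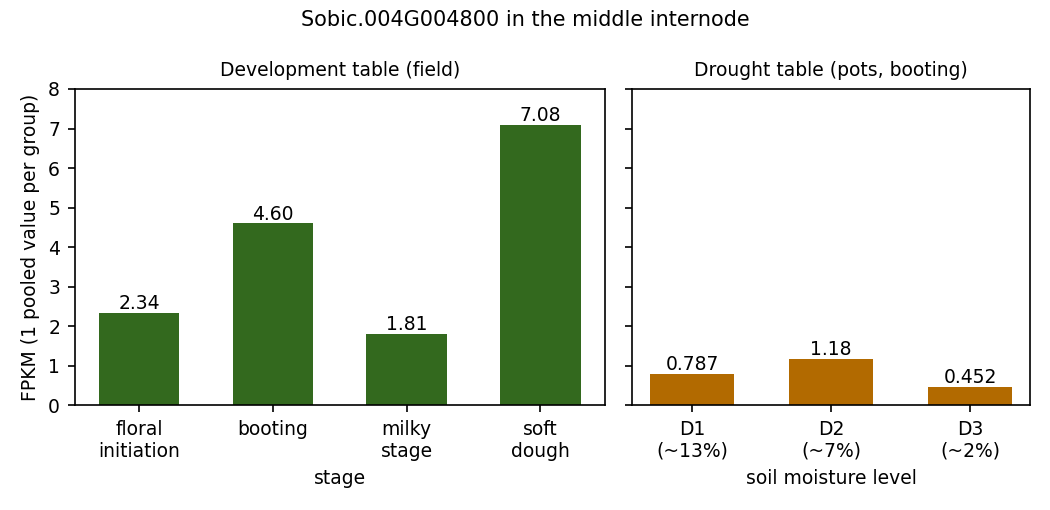
FPKM of Sobic.004G004800 (bars, from 0) in the 4 field stages and the 3 soil moisture levels, 1 pooled value per group and no error bars. Field values run from 1.81 to 7.08 and pot values from 0.452 to 1.18; the 2 tables were normalized separately.

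The transcript was of low abundance throughout. At soft dough 69.2% of the listed loci lay below Sobic.004G004800, and 10693 loci lay above it. At milky stage 56.1% lay below, at floral initiation 57.4% and at booting 64.3%. Among the loci of the drying series the shares were 47.7% at D1, then 51.9% at D2 and 45.5% at D3, and 25.2% to 27.9% of the loci in each of the 7 columns were listed at 0. Loci at 1 FPKM or more had medians of 10.8 to 12.9 FPKM across the columns, above the invertase in every one.

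Depth was judged from the smallest non-zero values, since library totals are not among the values used. A locus of 1 kb at 1 FPKM corresponded to 56.4 (D1) to 84.7 (D2) of the smallest steps, with the printed span, introns included, taken as the length. On this scale the invertase stood at about 497 steps per kilobase at soft dough and at 125 at milky stage. In the pots it stood at 44.4 steps at D1, then 99.6 at D2 and 27.2 at D3. If 1 step is 1 fragment, the pot values rest on the fewest fragments, and D2, the highest of them, comes from the column with the finest step. Whether that bears on its order was not tested.

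The stage comparisons ask how the transcript moved as the stem matured. A difference was called at 1 or more on the log2(FPKM + 1) scale, with at least 1 FPKM in the higher column, a scale that understates the change of low loci. From milky stage to soft dough, Sobic.004G004800 was called higher, with 1.81 and 7.08 FPKM, a log2 difference of 1.52 and a ratio of 3.90. In the same comparison 7.55% of 17947 measured loci were called higher, and 3.35% had a log2 difference at least as large. Shares of this kind are over measured loci and are smaller over all listed loci, here 3.90% called higher. Among loci at 1 to 10 FPKM in the higher column, where the invertase lies, 7.75% were called higher. The call depends on the pseudocount, since the log2 difference was 0.83 with a pseudocount of 5.

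Soft dough was also called higher than floral initiation, by 1.28 on the log2 scale, a ratio of 3.03. That comparison called 14.7% of 18568 measured loci higher, and 9.61% had a log2 difference at least as large. With a pseudocount of 5 it was 0.72 and no longer called. The library titles of floral initiation end in another digit than those of the later stages, and the labels do not explain it. Digit and stage therefore cannot be told apart in any comparison or order of stages that includes floral initiation. Milky stage and soft dough share the digit.

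The other stage differences of the invertase were not called. Milky stage against booting, 1.81 against 4.60 FPKM, had a log2 difference of -0.99, just inside the call threshold. Of 18209 measured loci, 14.0% were called lower at that step, so a difference of this size was common there. With a pseudocount of 0.1 the log2 difference was -1.30 and passed the threshold. Booting against floral initiation had a log2 difference of 0.75 and a ratio of 1.97. In that step 5.60% of 17889 loci were called higher, and 9.04% had a log2 difference at least as large. Milky stage against floral initiation had a log2 difference of -0.25. There 15.3% of 18337 loci were called lower, and 39.7% had a log2 difference at least as large downwards. Soft dough against booting had a log2 difference of 0.53. There 13.8% of 18638 loci were called higher, and 28.2% had a log2 difference at least as large.

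Ordered from low to high, the stages ran milky stage, floral initiation, booting and soft dough. Neighbours in this order differed by 0.25, 0.75 and 0.53 on the log2 scale, none of which was called, and with pooled columns none can be set against a spread. The same order was held by 377 of 19250 loci at 1 FPKM or more in any stage, or 1.96%. An order counts steps of any size, so this share describes how often such a course was seen and is not a test.

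**Figure D2:**
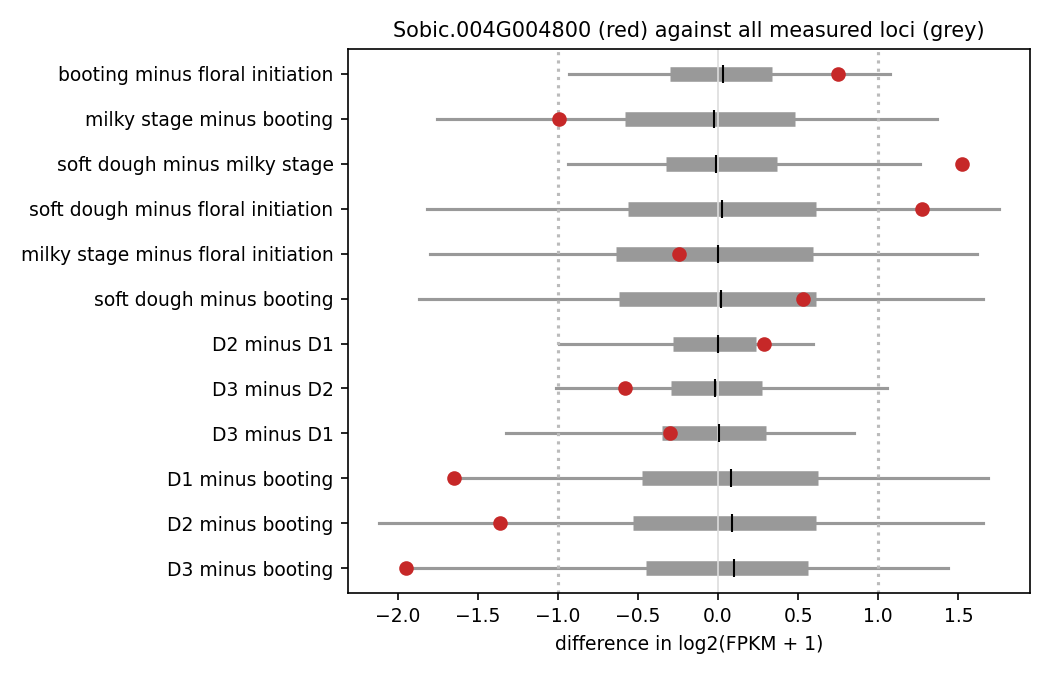
Difference in log2(FPKM + 1) of Sobic.004G004800 (red points) in 12 comparisons, with all measured loci as the median (black tick), the range from the 25th to the 75th percentile (thick grey line) and from the 5th to the 95th (thin grey line). Dotted lines mark the call threshold of 1. The invertase lies past the 95th percentile in soft dough minus milky stage (1.52 against 1.26). It lies only just past the 5th in D1 minus booting (-1.65 against -1.62) and in D3 minus booting (-1.95 against -1.93).

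The drought comparisons ask how the transcript moved as the pots dried. None of the 3 was called for Sobic.004G004800. D2, the highest pot level, stood at 1.12 on the log2(FPKM + 1) scale. Even its difference from no transcript at all would barely pass the call threshold. A call was thus almost out of reach at these levels, and its absence does not show a steady transcript. D2 against D1, 1.18 against 0.787 FPKM, had a log2 difference of 0.28 and a ratio of 1.49. At that step 1.19% of 16865 measured loci were called higher, and 20.7% had a log2 difference at least as large. Among loci at 1 to 10 FPKM in the higher column, 1.57% were called higher.

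D3 against D2, 0.452 against 1.18 FPKM, had a log2 difference of -0.58, while the FPKM at D2 was 2.60 times that at D3. Of 16739 measured loci, 5.12% were called lower at this step, and 12.2% had a log2 difference at least as large downwards. Among loci at 1 to 10 FPKM in the higher column, 4.65% were called lower. Because the scale shrinks the change of the invertase more than that of more abundant loci, the 12.2% makes it look more ordinary than its ratio. The pseudocount weighs heavily at this level: at 0.1 the log2 difference was -1.21 and passed the threshold. D3 against D1 had a log2 difference of -0.30, with both columns under 1 FPKM, so the invertase did not count as measured in that comparison. Of the 17045 loci that did, 8.10% were called lower, and 27.7% had a log2 difference at least as large downwards.

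In the pots the order from low to high was D3, D1 and D2, with log2 differences of 0.30 and 0.28 between neighbours. That order was held by 16.4% of 17207 loci at 1 FPKM or more in any drought column. Both the stage order and the pot order of the invertase were held by 37 of 13949 loci, or 0.265%. These are loci that the tables share by ID and range and that had 1 FPKM or more in any column. The share is a description and not a test, and a joint order is rarer than either order by its construction.

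The pot plants and the field plants at booting were at the same stage, so their values were set side by side. Sobic.004G004800 had 4.60 FPKM in the field at booting. The pots were lower, with log2 differences of -1.65 (D1), -1.36 (D2) and -1.95 (D3), each past the call threshold. The booting value was 5.84 times that at D1, 3.91 times that at D2 and 10.2 times that at D3. Among the shared loci measured, 12.0% were called lower at D1, 15.5% at D2 and 13.2% at D3. With a pseudocount of 5 the differences were -0.73, -0.64 and -0.82, none of them called, and with 0.1 that for D3 was -3.09. At least as large a difference downwards was seen at 4.78% of loci for D1, 10.3% for D2 and 4.97% for D3.

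The 3 pot comparisons share the booting column, so they are not separate evidence. All 3 together were called lower at 8.33% of 12507 shared loci and higher at 6.57%. The lowest field value, 1.81 FPKM at milky stage, was 1.54 times the highest pot value, 1.18 at D2, a log2 difference of 0.37 that was not called. Every pot column below every field column was seen at 12.7% of 13949 shared loci, and the opposite at 18.8%, so such a split was common between the tables. Growth in pots, withheld water, the separate normalization of the tables and, for booting, the title digit cannot be told apart. Against the other field columns the stage differs as well, since all pot plants were taken at booting.

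The loci whose course was most like that of Sobic.004G004800 were found over all 7 columns, with log2(FPKM + 1) centred on its mean within each table. The comparison took in 10897 loci with at least 5 FPKM in a column of each table, a level the invertase itself did not reach in the pots. The closest of these was Sobic.005G090600 (chromosome 5, 13318949 to 13324681), at a Euclidean distance of 0.44 against a median of 1.55 over all loci compared. Along the stages it had 34.2, 50.7, 20.8 and 87.001 FPKM. At D1, D2 and D3 it had 32.2, 48.2 and 29.7 FPKM. Its lowest stage and its highest stage were those of the invertase, and D2 was above D1 and D3, a likeness for which it was chosen. Its pot values were not all below its field values. The scale flattens the pot values of the invertase more than those of such abundant loci, and no other pseudocount was tried for the search.

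Sobic.010G246000 (chromosome 10, 58568568 to 58576920) was next, at a distance of 0.45. It had 19.5, 31.6, 13.3 and 58.6 FPKM along the stages and 25.1, 28.3 and 23.7 along the drying. In both loci booting lay above floral initiation, milky stage was lowest and soft dough highest. Sobic.009G135100, Sobic.001G380200 and Sobic.003G391100 followed at distances of 0.48, 0.54 and 0.57. Their Pearson r with the invertase over the 7 centred values was 0.94, 0.91 and 0.90, a description with no test, since they were chosen for likeness and all loci share the same 7 columns. With Pearson r in place of distance, 2 of the 5 were named again, and 3 of the 5 were with the minimum level set at 1 FPKM, which the invertase itself meets. The closest locus then changed, to Sobic.001G460300 at a distance of 0.30, with Sobic.010G028501 next at 0.41 and Sobic.005G090600 behind them. The files do not say what these loci encode.

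**Figure D3:**
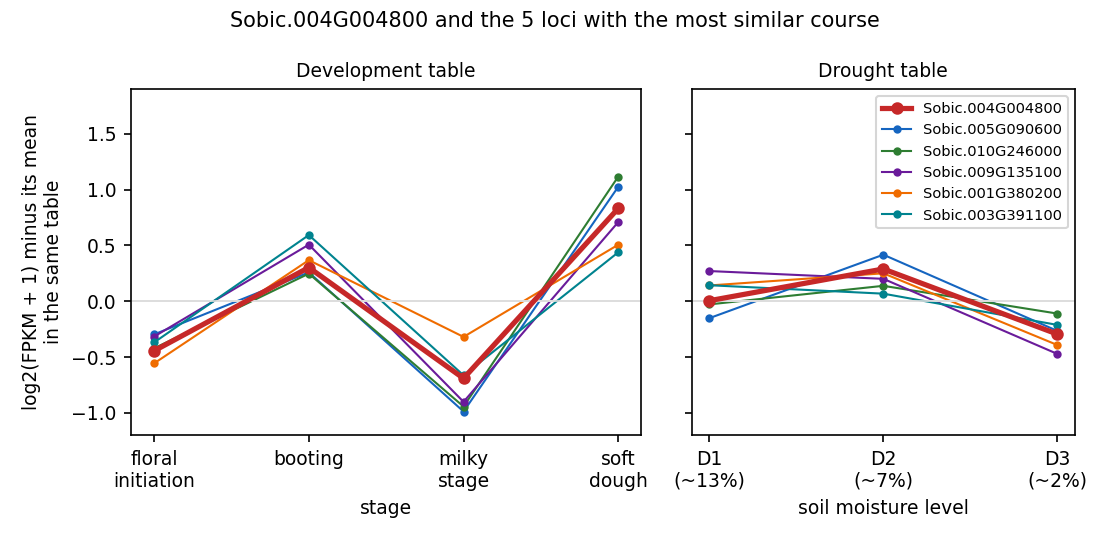
log2(FPKM + 1) minus its mean within the same table, for Sobic.004G004800 (thick red) and the 5 loci with the most similar course, by stage (left) and soil moisture level (right), 1 pooled value per point. The distances to the invertase course run from 0.44 to 0.57, and the lines are highest at soft dough except for Sobic.003G391100, which had 33.5 FPKM at booting and 30.04 at soft dough.

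Of the loci beside the invertase on chromosome 4, the nearest had a flat course over the stages. Sobic.004G004900 starts at 423254 in the development table, 91 bp beyond the end of the invertase range, and at 423248, 85 bp beyond it, in the drought table. It had 6.66, 8.68, 7.19 and 6.03 FPKM along the stages and 6.22, 7.73 and 6.79 at D1, D2 and D3. Its stage values spanned 0.46 on the log2 scale, with soft dough the lowest where the invertase was highest. Whether fragments were counted by strand is not stated, and whether the close ends share fragments was not tested.

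Sobic.004G005000 (432827 to 434187) went down along the stages, from 2.83 to 1.91, 1.09 and 0.761 FPKM. In the pots it had 1.85, 0.970 and 1.77 FPKM, with D2 the lowest where the invertase was highest. On the other side, Sobic.004G004700 was listed at 0 in all 7 columns. Sobic.004G004600 (397740 to 402699), 15538 bp away, had 14.8, 12.9, 9.48 and 22.1 FPKM along the stages. Like the invertase it was lowest at milky stage and highest at soft dough, with 1.14 on the log2 scale between them. Unlike the invertase, it was lower at booting than at floral initiation. In the pots it had 9.07, 7.44 and 7.98 FPKM, so there its order also differed from that of the invertase.

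**Figure D4:**
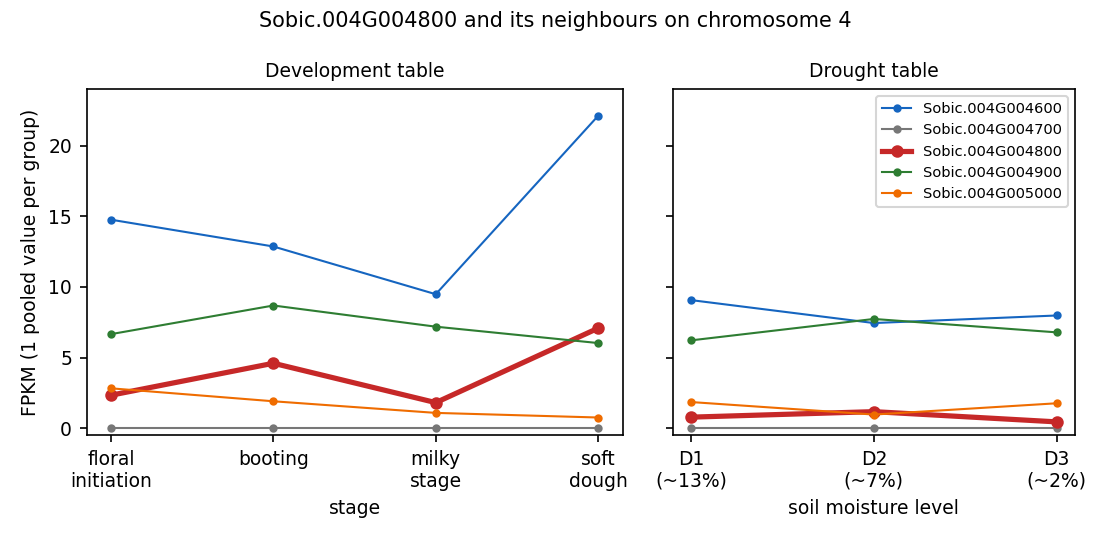
FPKM of Sobic.004G004800 (thick red) and the 2 loci on either side of it on chromosome 4, by stage (left) and soil moisture level (right), 1 pooled value per point. At soft dough the invertase (7.08) lies above Sobic.004G004900 (6.03), which it does at no other stage; Sobic.004G004700 lies at 0 throughout.

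Other genes of sucrose use, including other invertases, invertase inhibitors, sucrose synthases and sugar transporters, were to be set beside the invertase by name. Of 34129 different IDs in the files, 0 matched the RefSeq gene table as supplied. Its locus tag and synonym fields were empty, so the lack of matches does not show that these genes are absent from RefSeq. As a result 0 of the 10 planned lists could be described, and the tissue could not be checked against marker genes.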

How the data were processed

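The gene, the lists and the call rule were chosen with earlier results of these data known. The values are FPKM, per the file headers, deposited by the authors as a development table with 4 columns and a drought table, with 3, that were normalized separately. Tools listed in the submitters' processing notes, with no order or role, are HISAT2 2.0.5, Cuffdiff, cutadapt 1.8.1 and Bowtie2 2.2.9. Per the labels' protocols, libraries came from a stranded total RNA kit. Genome build, annotation and filters are not stated in the labels or headers. Since 2 libraries point to each column, it was taken as the authors' pooled value, so no test was run.

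Differences were taken as log2(FPKM + 1) with Python 3.11.15, numpy 2.4.6 and pandas 2.3.3. Shared loci are the 26825 with the same IDs and printed range in both tables. The step behind the depth statement is a low percentile (the 1st) of FPKM multiplied by locus length in kilobases, over non-zero loci up to 3000 bp. Length was the printed span, introns included. Loci were named by rule: the gene, the 5 closest courses, and the 2 loci on either side. Calling and the search for similar courses were tested on simulated data. The changes were planted in loci starting at 5 FPKM or more, with Poisson noise and no spread between replicates. The planted courses were almost equal to that of the invertase. Neither run therefore shows how well the steps work at the levels and distances reported here. Alternatives were pseudocounts of 0.1 and 5, filters at 5 FPKM and none, 3 other scalings and Pearson r. The field against pot alternatives, the gap between field and pot ranges, the counts of column orders, 2 of the stage pairs, the 1 to 10 FPKM background and the 1 FPKM minimum were added after seeing the data.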

Additional observations from a re-analysis of the deposited data

How the results depend on the processing

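The 12 log2 differences of the invertase and its field to pot gap were recomputed under 5 settings, 65 values in all, and 0 changed direction. That count is no check of direction, since a pseudocount cannot reverse a difference. The scalings changed the columns of the 12 comparisons against each other by factors of 0.907 to 1.11. The smallest ratio of the invertase was 1.29, too large for such factors to reverse. A pseudocount of 5 took the called differences under the threshold of 1: soft dough minus milky stage to 0.83, soft dough minus floral initiation to 0.72, and D1, D2 and D3 minus booting to -0.73, -0.64 and -0.82. Raising the pseudocount lowers the size of any log2 difference by its construction. A pseudocount of 0.1 took milky stage minus booting to -1.30 and D3 minus D2 to -1.21, both past the threshold, and D3 minus booting to -3.09. The 3 scalings between columns changed 0 calls. Rescaling to the same sum moved the median of all measured loci from 0.03 to -0.11 for booting minus floral initiation and from 0.02 to 0.15 for soft dough minus booting; the invertase went from 0.75 to 0.63 and from 0.53 to 0.65. Of 24 counts over all loci, 1 moved by more than 1.5 times with the filter at 5 FPKM, D2 higher than D1, from 201 to 130. Without a filter the counts cannot change, since a call already needs 1 FPKM, but the shares of loci called do, because more loci enter: 7.55% became 3.90% for soft dough over milky stage, 14.7% became 7.84% for soft dough over floral initiation and 12.0% became 5.78% for D1 under booting. No paired analysis was possible because each group has 1 pooled column, and leaving out replicates could not be run for the same reason.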
